A study of Mus musculus with 18 samples.

Results

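The probes described here are those of the chemokines and their receptors, the numbered interleukins and their receptors, the colony-stimulating factors and their receptors, and the tumour necrosis factor (TNF) family with its receptors. They were chosen by gene symbol, as every probe of the B6 and NZW arrays whose symbol begins with Ccl, Ccr, Cxcl, Cxcr, Csf or Il and a digit, or with Tnf. The rule took 273 probes of 180 symbols from the 46643 probes of those arrays. On the arrays of BALB/C, DBA1 and 129/svj, 108 of 46147 probes, of 95 symbols, carried the search key of such a probe, and 80 probes were matched one to one between both sets of arrays. A further 128 of the 273 probes had no shared key and were read in B6 and NZW only.

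Kidney cortex was taken from 15 mice at 2 months of age, 3 mice in each of 5 inbred strains, and was hybridised to 18 Illumina mouse BeadChip arrays. All mice had been challenged with antibodies to the glomerular basement membrane (anti-GBM), a model of immune-mediated glomerulonephritis. B6 and BALB/C mice are labelled resistant to this challenge, and DBA1, 129/svj and NZW mice sensitive. No unchallenged mice were measured here, so a strain difference present before the challenge cannot be told apart from one in the response to it. The study deposited B6 and NZW in one table and the other strains in another, so strains were compared within a table first. Median array signals were 81.1 to 89.8 for B6 and NZW and 118 to 152 for the other strains, with 30.5% to 36.4% of probes detected per array. Proximal tubule markers were detected for 7 of 7 genes with a probe in B6 and NZW and for 6 of 6 in the other table, which bears on the cortex label. All values below are log2 signals after background correction and quantile normalization within a table. Those of the comparison over both tables were normalized over all arrays instead, so they differ from the values within a table.

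Chemokines are small secreted proteins that draw leukocytes along a gradient by binding G protein-coupled receptors, and their names pair ligands (Ccl, Cxcl) with receptors (Ccr, Cxcr). Interleukins and colony-stimulating factors act mostly through receptors that signal by Janus kinases and STAT proteins, whereas the TNF family acts through trimeric ligands and receptors that recruit TRAF adaptors and activate NF-kB. In nephritis these families are known for bringing macrophages, neutrophils and T cells into the glomerulus and the interstitium, and resident tubular, glomerular and endothelial cells make many of them. The cortex was measured as a whole, so fewer cells of a type and less RNA per cell cannot be told apart.

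Csf1, Cxcl12 and Il17rb were called lower when the resistant minus sensitive differences of both tables were averaged, for Cxcl12 mostly through BALB/C. Cxcl1, an inducible neutrophil chemokine, was called higher in B6 than in NZW. To place these members in the genome, the 250 bases before their start sites were taken from RefSeq (GRCm38.p6), in the order named. They lie at chr3:107760470-107760719 on the minus strand, chr6:117168285-117168534 on the plus strand, chr14:30008897-30009146 on the minus strand and chr5:90890995-90891244 on the plus strand, and capitals mark matches to the NF-kB consensus on either strand.
Csf1: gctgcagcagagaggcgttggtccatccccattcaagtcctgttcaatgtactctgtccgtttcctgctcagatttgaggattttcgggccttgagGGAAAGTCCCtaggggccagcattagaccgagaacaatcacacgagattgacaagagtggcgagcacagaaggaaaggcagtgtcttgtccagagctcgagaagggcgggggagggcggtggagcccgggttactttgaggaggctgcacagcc
Cxcl12: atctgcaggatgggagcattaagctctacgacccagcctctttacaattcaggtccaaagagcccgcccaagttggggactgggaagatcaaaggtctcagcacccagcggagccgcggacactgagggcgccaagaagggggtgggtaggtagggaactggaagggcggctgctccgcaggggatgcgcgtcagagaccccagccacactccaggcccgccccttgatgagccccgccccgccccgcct
Il17rb: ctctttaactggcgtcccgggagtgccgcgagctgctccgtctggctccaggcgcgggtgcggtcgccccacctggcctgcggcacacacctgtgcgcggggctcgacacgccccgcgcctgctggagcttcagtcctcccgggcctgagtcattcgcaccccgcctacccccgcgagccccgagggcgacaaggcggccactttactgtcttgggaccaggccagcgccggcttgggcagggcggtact
Cxcl1: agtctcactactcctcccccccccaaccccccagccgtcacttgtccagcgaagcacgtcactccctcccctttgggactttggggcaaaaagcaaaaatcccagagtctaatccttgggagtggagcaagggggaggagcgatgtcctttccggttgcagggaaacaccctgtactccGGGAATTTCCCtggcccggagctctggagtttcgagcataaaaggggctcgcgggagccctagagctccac
A promoter was read for 15 of the 22 symbols called in any comparison. Promoters of a single chromosome were left out for these symbols, but not from the count over all promoters. Over a window that also takes in 50 bases after the start, the consensus was present in 3 of these 15 (20%), namely Csf1, Cxcl1 and 1 of the 3 listed starts of Il16, against 2779 of all 32851 promoters (8.46%). A symbol was counted when any of its listed starts held a match, whereas each of all promoters was counted singly. These shares are thus not like for like. The first base of the match lay 154 bases before the start of Csf1 and 71 bases before that of Cxcl1. These are letter matches and not measured sites.

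A probe was called detected when its detection p-value was 0.05 or less in at least 3 mice of its table. In B6 and NZW 82 of the 273 member probes (30%), of 67 genes, were detected, compared with 35.9% of all probes. Among the other strains 25 of 108 (23.1%), of 22 genes, were detected, compared with 34.3% of all probes. In B6 and NZW 58 member probes were detected in every mouse and 161 in none, and in BALB/C, DBA1 and 129/svj these counts were 11 and 72. Of 61 genes with several probes in the first table, 25 had both a detected and an undetected probe, so a gene without signal on one probe was not necessarily without transcript.

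Detection differed by role. Among chemokine ligands 19 of 37 probes were detected in B6 and NZW, among interleukins themselves 8 of 53, and among interleukin receptors 29 of 84. Chemokine receptors were detected with 2 of 16 probes, those of Cxcr3, a receptor of activated T cells, and Cxcr7, a scavenging receptor for Cxcl12. Of the colony-stimulating factors and their receptors 4 of 15 probes were detected, of the TNF ligands 3 of 18, of the TNF receptors 10 of 40, and of the TNF-induced and other Tnf-named genes 7 of 10. On the arrays of BALB/C, DBA1 and 129/svj, 6 of 18 chemokine ligand probes, none of 6 chemokine receptor probes, 2 of 23 interleukin probes, 12 of 32 interleukin receptor probes, 2 of 5 colony-stimulating factor probes, 2 of 9 TNF ligand probes and 1 of 15 TNF receptor probes were detected.

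**Figure D1:**
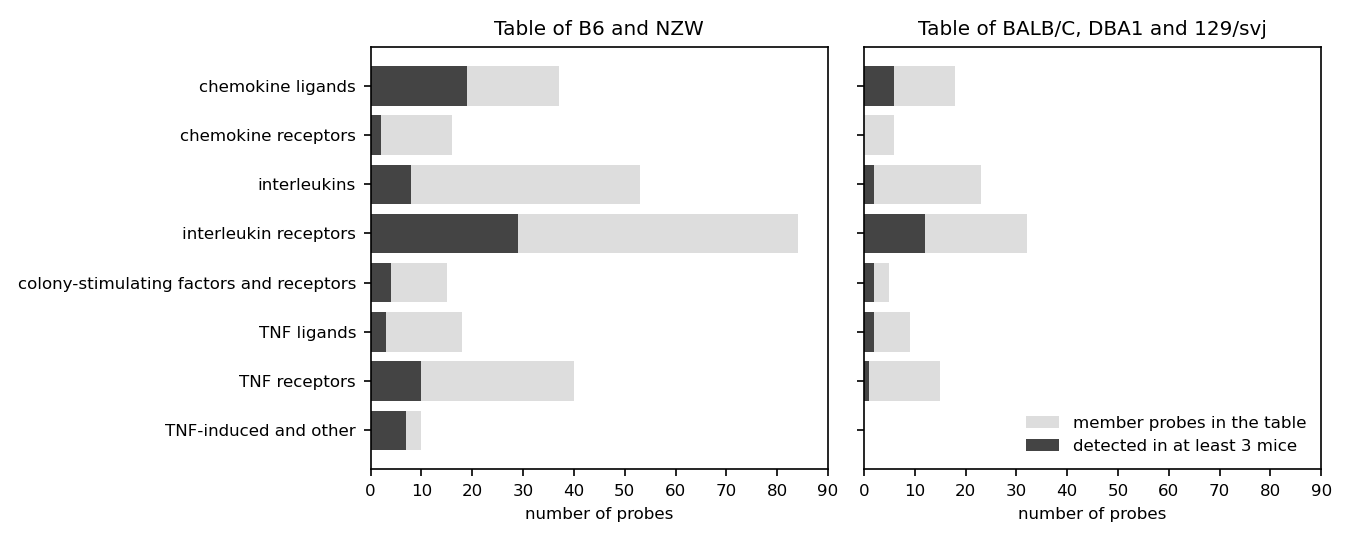
Member probes by role in each table, as the number of probes on the array and the number detected in 3 or more mice. In B6 and NZW 19 of 37 chemokine ligand probes and 8 of 53 interleukin probes were detected, and among the other strains 6 of 18 and 2 of 23.

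For each role, the brightest probe detected in every mouse is given, as the signal of that probe alone in the challenged cortex. These signals do not rank the genes of a role. Cxcl12, the ligand of Cxcr4 that retains haematopoietic cells and is made by stroma and endothelium, averaged 12.00 in B6 and 12.21 in NZW. Il11ra1, the ligand-binding chain of the IL-11 receptor, averaged 12.42 and 12.27, and Tnfrsf1a, the main signalling receptor for TNF, 11.44 and 11.03. The probe of Tnfaip1, a TNF-induced adaptor of ubiquitin ligases, averaged 11.32 and 11.34. Among the TNF ligands the brightest such probe was that of Tnfsf12-tnfsf13, at 9.08 and 9.40. Among the chemokine receptors it was that of Cxcr7, at 5.89 and 6.27, a difference that was not called (limma adjusted p = 0.21). In the other table the row read as Il11ra1, whose key names more than 1 symbol, averaged 10.99 in BALB/C, 11.04 in DBA1 and 10.73 in 129/svj. Csf1r, the macrophage growth factor receptor, averaged 7.34, 7.75 and 7.54 there. Signals of the Il11ra1, Ccl21, Ccl27 and Csf2rb probes may include signal of near-identical gene copies.

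In the comparison of B6 with NZW, 21 of the 82 detected member probes (25.6%) differed in limma at an adjusted p below 0.05, 15 of them higher in B6 and 6 lower, and 18.9% of all tested probes did. The called probes split 9.24% higher and 9.61% lower over all tested probes. Among the members called higher, Il6st, Il10ra, Ccl25 and Il16 passed the detection filter through the B6 mice alone, so the filter set their direction. No member passed it through the NZW mice alone. The split and the member median include these probes. With each array scaled to its 75th percentile in place of quantile normalization, 12 member probes were higher and 7 lower, and the share of higher probes among all called probes went from 49% to 37.3%. The median difference of B6 minus NZW was 0.12 over the member probes and -0.04 over all tested probes. In 37 of the 82 member probes all 3 B6 mice lay to one side of all 3 NZW mice, which was true of 37.3% of all tested probes, and these 37 included all 21 called ones. Without B6 mouse 1 or without B6 mouse 2 the count of called members was 9, when 11.8% and 10.8% of all tested probes were called. Without B6 mouse 3 it was 13, when 11.7% of all tested probes were called. The chemokine ligands called were all higher in B6, 5 of 19 detected probes, with Ccl25 among the 5. Both Cxcl9 probes (-0.49 and -0.39) and both detected Cxcl12 probes (-0.40 and -0.22) were lower in B6 without a call (limma adjusted p = 0.12, 0.16, 0.11 and 0.27). The first of these Cxcl12 probes was called lower with 75th percentile scaling, and each Cxcl9 probe with 1 NZW mouse left out. The interleukins and the colony-stimulating factors with their receptors were split, and none of the 10 detected TNF receptor probes was called by limma, with 4 of them at an unadjusted p below 0.05 and none called by the methods' t-test.

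**Figure D2:**
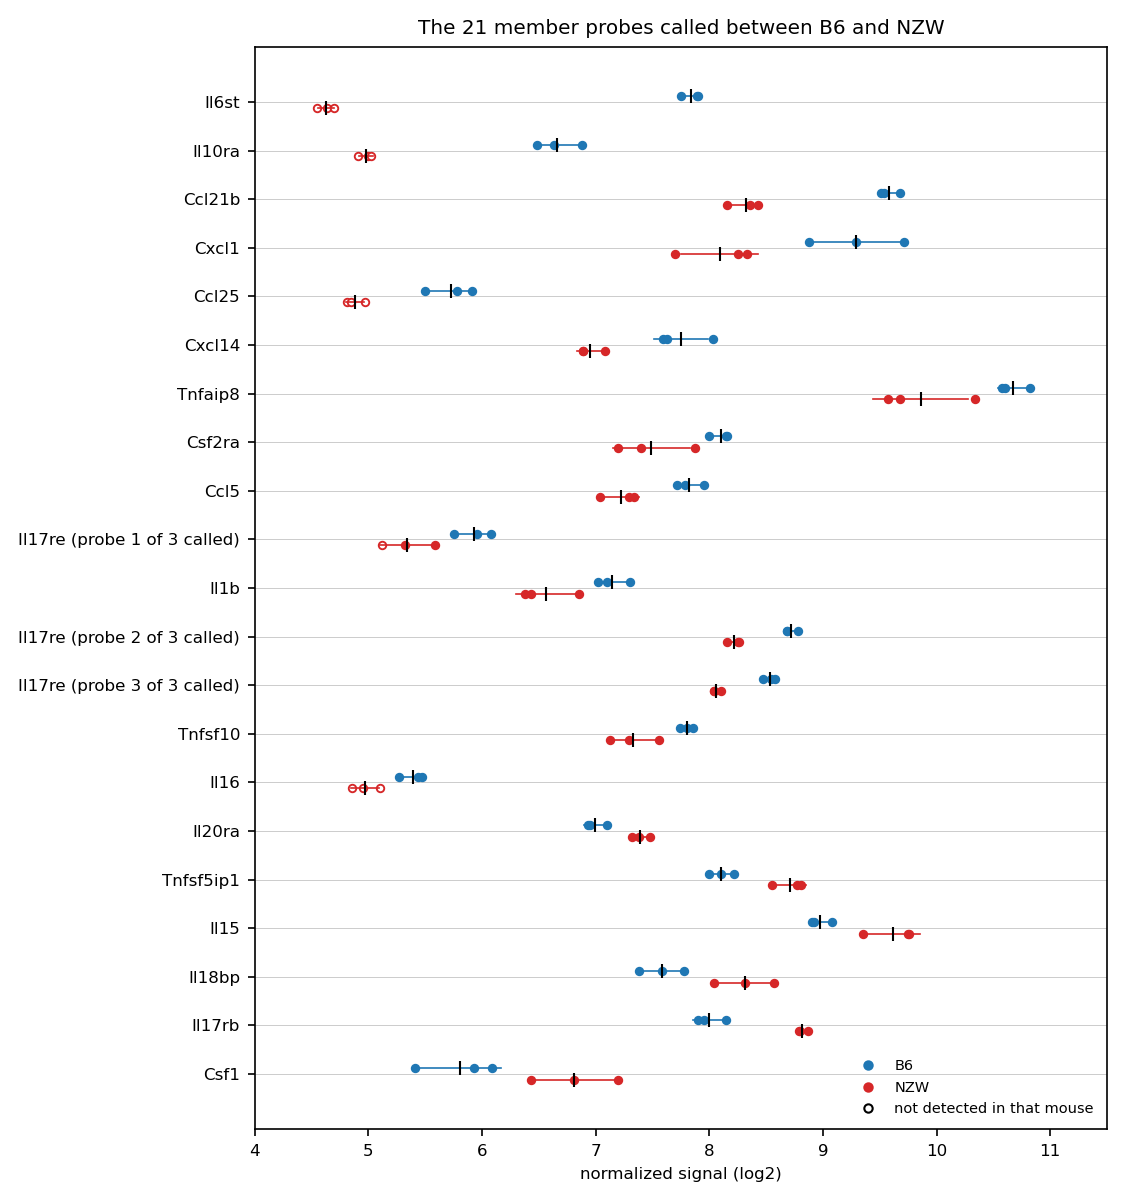
Normalized log2 signal of each B6 and NZW mouse for the 21 called member probes, ordered by the difference of B6 minus NZW, with filled points for a detected mouse, open points for no detection, a tick for the strain mean and a line for its SD (n = 3). No called probe has overlapping strains, and Il6st, Il10ra, Ccl25 and Il16 have only open points in NZW.

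Among the chemokine ligands, Ccl21b, which guides naive T cells and dendritic cells through Ccr7, was read at 9.51, 9.54 and 9.68 in the B6 mice and at 8.43, 8.16 and 8.36 in the NZW mice. The difference was 1.26 (SE 0.12, adjusted p = 0.00011 in limma), with no overlap between strains. Cxcl1, a chemokine for neutrophils through Cxcr2, was read at 9.71, 9.29 and 8.88 in B6 and at 8.33, 7.70 and 8.25 in NZW. It was higher in B6 by 1.20 (SE 0.23, limma adjusted p = 0.0079). For Cxcl14, an epithelial chemokine, the values were 8.03, 7.59 and 7.63 against 6.89, 7.08 and 6.89, a difference of 0.80 (SE 0.14, limma adjusted p = 0.005). A second Cxcl14 probe differed by 0.48 and was not called (limma adjusted p = 0.069). Ccl5, which attracts T cells and monocytes, was higher in B6 by 0.60 (SE 0.12, limma adjusted p = 0.011), from 7.79, 7.95 and 7.72 in B6 against 7.04, 7.29 and 7.34 in NZW. Ccl25, known for drawing Ccr9-bearing T cells to the gut and thymus, was detected in all 3 B6 mice at 5.78, 5.91 and 5.50 and in none of the NZW mice, at 4.81, 4.85 and 4.97.

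Il6st and Il10ra passed the filter only through the B6 mice. Il6st encodes gp130, the signalling chain shared by the receptors of IL-6, IL-11 and related cytokines. Probe ILMN_2608184 was read at 7.75, 7.89 and 7.90 in B6 and at 4.64, 4.55 and 4.70 in NZW, where no mouse detected it. The fitted difference of 3.22 (SE 0.10, limma adjusted p = 2e-07) is against signal that is not well above background. Il6st had a second probe, which was detected in neither strain, at means of 4.65 and 4.68. Il10ra, the ligand-binding chain of the IL-10 receptor on leukocytes, was read at 6.48, 6.88 and 6.63 in B6 and at 4.91, 5.00 and 5.02 in NZW, again without detection in NZW. Its fitted difference was 1.69 (SE 0.13, limma adjusted p = 3e-05). Sequence variants of the strains under these probes were not analysed here.

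For probes not well above background in all mice of a strain, the difference gives only a bound, taken as the mean of the bright strain against the higher of the lowest detected signal of each array and the dim probe's own signal. The bound concerns strain means and leaves out the spread between mice. On that reading the B6 mean was at least 5.74-fold higher for Il6st, at least 2.53-fold for Il10ra, at least 1.33-fold for Ccl25 and at least 1.05-fold for Il16. Il16, a chemoattractant that binds CD4, was read at 5.27, 5.44 and 5.47 in B6 and at 4.86, 5.10 and 4.95 in NZW (limma adjusted p = 0.035). The call of Il16 was lost without background correction (difference 0.26), with an offset of 50 (0.22), with 75th percentile scaling, with the methods' t-test, and without NZW mouse 1 or 3. These 4 members were the only ones detected in every mouse of one of these strains and in none of the other, so all 4 entered the test through B6 alone. No member was detected in every NZW mouse and in no B6 mouse.

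Of the IL-17 receptor family, Il17re was called higher and Il17rb lower in B6, while Il17ra (difference -0.38), Il17r (-0.29), Il17rc (-0.31 and 0.12) and Il17rd (-0.49) were not called (limma adjusted p = 0.17, 0.16, 0.18, 0.77 and 0.12). The symbols Il17ra and Il17r share a search key and may name the same gene. Il17re, the chain that binds IL-17C together with Il17ra, was higher in B6 with 3 of its 4 probes, by 0.59, 0.49 and 0.47 (limma adjusted p = 0.026, 0.0094 and 0.011), and the other probe was detected in no mouse. The last 2 of these calls were lost with 75th percentile scaling (differences 0.39 and 0.38). The first was lost without a filter and without 4 of the 6 mice taken one at a time, and the last without B6 mouse 1 or 2. On the brightest of these probes the B6 mice were at 8.78, 8.68 and 8.68 and the NZW mice at 8.25, 8.26 and 8.16. Il17rb, the receptor chain for IL-25, was read at 7.95, 8.15 and 7.90 in B6 and at 8.79, 8.80 and 8.87 in NZW, and was thus lower in B6 by 0.82 on the log2 scale (difference -0.82, SE 0.11, limma adjusted p = 0.0011). Il20ra, a receptor chain for IL-19, IL-20 and IL-24, was also lower in B6 (difference -0.40, SE 0.11, limma adjusted p = 0.033). Its B6 values were 7.10, 6.93 and 6.95 and its NZW values 7.32, 7.48 and 7.38.

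Among the interleukins, Il1b, the inflammasome product that activates endothelium and leukocytes, was read at 7.10, 7.02 and 7.30 in B6 and at 6.43, 6.38 and 6.85 in NZW, a difference of 0.59 (SE 0.15, limma adjusted p = 0.028). Il15, which sustains natural killer and memory CD8 T cells and is made by tubular epithelium, was lower in B6, at 8.92, 9.08 and 8.90 against 9.75, 9.35 and 9.76 (difference -0.66, SE 0.14, limma adjusted p = 0.012). Its 3 other probes were not detected. Il18bp, a secreted inhibitor of IL-18, was likewise lower in B6, at 7.38, 7.58 and 7.78 against 8.31, 8.04 and 8.57 (difference -0.73, SE 0.16, limma adjusted p = 0.015). Hence the interleukin probes called higher in B6 were those of Il1b and Il16, and those called lower were Il15 and the inhibitor Il18bp.

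Csf1, the growth factor on which tissue macrophages depend, was read at 5.93, 6.09 and 5.41 in B6 and at 6.43, 7.20 and 6.81 in NZW (difference -1.0, SE 0.23, limma adjusted p = 0.016). Both probes of its receptor Csf1r were close to the detection limit, with differences of -0.27 and -0.13 that were not called (limma adjusted p = 0.39 and 0.56). Csf2ra, the binding chain of the GM-CSF receptor, was higher in B6, at 8.15, 8.16 and 8.0 against 7.40, 7.20 and 7.87 (difference 0.61, SE 0.17, limma adjusted p = 0.038). Leaving out single mice, the call of Csf1 was lost without B6 mouse 3 and without NZW mouse 3, and that of Csf2ra in 5 of 6 cases. Those of Ccl5 and Il18bp were lost without B6 mouse 2, and that of Il18bp also without B6 mouse 1.

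Of the TNF family, Tnfsf10, the death ligand TRAIL, was higher in B6, at 7.80, 7.74 and 7.86 against 7.56, 7.13 and 7.29 (difference 0.47, SE 0.13, limma adjusted p = 0.037). Tnfaip8, a TNF-induced regulator of cell death, was read at 10.58, 10.60 and 10.82 in B6 and at 10.34, 9.57 and 9.68 in NZW (difference 0.80, SE 0.20, limma adjusted p = 0.023). The calls of Tnfsf10, Tnfaip8, Il1b and Il20ra were each lost in 5 of the 6 cases in which 1 mouse was left out. Tnfsf5ip1, the array's name for a proteasome assembly factor, was lower in B6, at 8.10, 8.0 and 8.22 against 8.81, 8.77 and 8.55 (difference -0.61, SE 0.12, limma adjusted p = 0.0079). The TNF receptors with the smallest p-values were Tnfrsf25, a death-domain receptor on T cells, with a difference of 0.81 (SE 0.25, limma adjusted p = 0.057), and Tnfrsf1a with 0.42 (SE 0.13, limma adjusted p = 0.062). Neither passed the threshold, and both passed it without background correction (differences 0.46 and 0.41, limma adjusted p = 0.042 and 0.026).

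In the table of BALB/C, DBA1 and 129/svj, the resistant BALB/C strain was compared with the mean of DBA1 and 129/svj. Limma called 2 of the 25 detected member probes (8%), 1 higher and 1 lower, where 6.01% of all tested probes were called (2.98% higher and 3.02% lower). The median difference was -0.10 over the members and 0.01 over all tested probes. Against DBA1 alone 4 of 25 were called (2 higher and 2 lower, against 5.75% of all tested probes, 2.86% higher and 2.89% lower), against 129/svj alone 1 of 25 (4.83%), and between the sensitive strains DBA1 and 129/svj 1 of 25 (4.49%). These comparisons share mice and are not independent of each other. Among the calls lower in BALB/C than in DBA1, that of Cxcl14 had no detection in BALB/C, so the filter set its direction.

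Cxcl12 was the member with the clearest difference. Its brighter probe was read at 10.10, 10.10 and 10.13 in the BALB/C mice, at 11.58, 11.15 and 11.39 in the DBA1 mice and at 10.99, 11.16 and 11.24 in the 129/svj mice. All 3 BALB/C mice lay below all 6 sensitive mice. The difference was -1.14 (SE 0.13, limma adjusted p = 0.00038) against both strains, -1.26 (SE 0.15, adjusted p = 0.00054) against DBA1 and -1.02 (SE 0.15, adjusted p = 0.0022) against 129/svj, and the call held without any single mouse in each of these comparisons. The second detected Cxcl12 probe, at 7.81, 7.86 and 7.33 in BALB/C, at 8.83, 8.23 and 8.27 in DBA1 and at 8.47, 8.43 and 8.09 in 129/svj, differed by -0.72 (SE 0.18, limma adjusted p = 0.05), just outside the threshold.

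Il10rb, the chain that the receptors of IL-10, IL-22 and the type III interferons share, was the member called higher in BALB/C. One probe was read at 6.69, 6.73 and 6.63 in BALB/C, at 5.47, 5.83 and 5.69 in DBA1 and at 6.31, 6.78 and 6.09 in 129/svj. The difference was 0.65 against both strains (SE 0.16, limma adjusted p = 0.042), 1.02 against DBA1 (SE 0.19, adjusted p = 0.0097) and 0.29 against 129/svj (adjusted p = 0.54). BALB/C overlapped with 129/svj but not with DBA1. A second and brighter Il10rb probe differed by 0.10 and was not called (limma adjusted p = 0.76), and the call against both strains was lost without 8 of the 9 mice taken one at a time. It was also lost without background correction (difference 0.28), with an offset of 50, without a filter, with a trended and robust variance and with the methods' t-test.

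The other calls involved DBA1. Tnfsf12-tnfsf13, a joined locus of the TNF ligands TWEAK and APRIL, was read at 8.01, 8.08 and 8.17 in BALB/C, at 7.08, 7.43 and 7.48 in DBA1 and at 8.39, 8.40 and 8.79 in 129/svj. DBA1 was below BALB/C (difference of BALB/C minus DBA1 0.76, SE 0.16, limma adjusted p = 0.025) and below 129/svj (difference of DBA1 minus 129/svj -1.20, SE 0.16, adjusted p = 0.0018), and no strain overlapped with another. Cxcl14 was read at 5.30, 4.99 and 4.88 in BALB/C without detection, and at 5.68, 6.19 and 6.58 in DBA1 with detection in 2 mice. On the bound used above the DBA1 mean was at least 1.38-fold higher (difference -1.09, SE 0.25, limma adjusted p = 0.032). This probe passed the filter through DBA1 and 129/svj mice alone, so the filter set the direction against BALB/C. Between DBA1 and 129/svj, at 5.26, 5.30 and 5.88, the Cxcl14 difference of 0.67 was not called (SE 0.25, limma adjusted p = 0.24). In the other table Cxcl14 was higher in the resistant strain, on probes not matched to this one, and the difference between the tables was not tested. The calls against DBA1 were lost for Cxcl14 without each BALB/C mouse in turn and without the second arrays (difference -1.05, limma adjusted p = 0.072), for Tnfsf12-tnfsf13 in 5 of 9 cases and for Il10rb without BALB/C mouse 2, whereas that of Tnfsf12-tnfsf13 between DBA1 and 129/svj held in all 9.

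**Figure D3:**
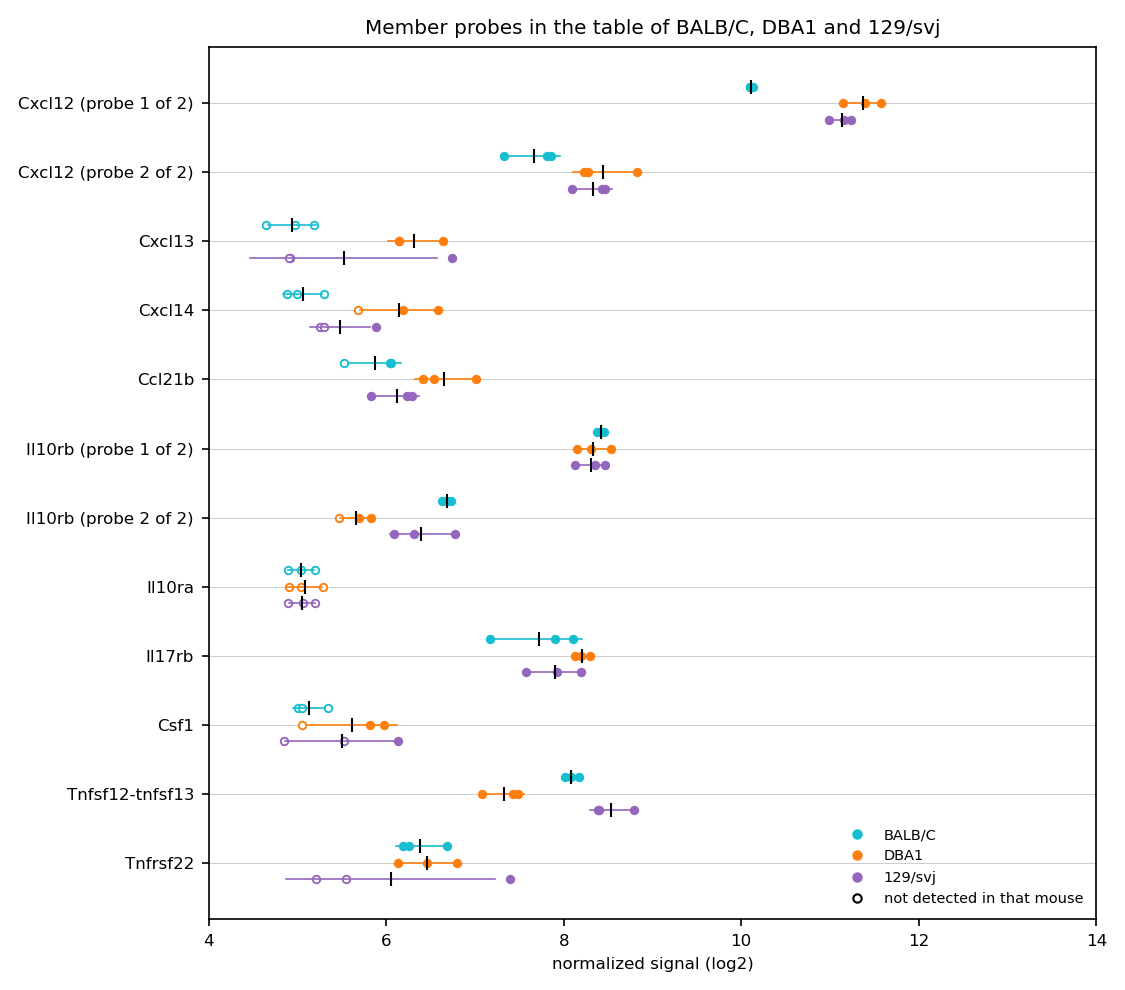
Normalized log2 signal of each BALB/C, DBA1 and 129/svj mouse for members of that table, with filled points for detection, open points for no detection, a tick for the strain mean and a line for its SD (n = 3). Cxcl12 is lower in all BALB/C mice, from 10.10 to 10.13, than in all DBA1 and 129/svj mice, from 10.99 to 11.58.

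Cxcl13, the chemokine that organises B cells through Cxcr5, was detected in all 3 DBA1 mice, at 6.14, 6.64 and 6.14, and in no BALB/C mouse, at 5.19, 4.65 and 4.97. On the bound used above the DBA1 mean was at least 1.54-fold higher, without regard to the spread between mice. The probe passed the filter without any BALB/C mouse. The difference of BALB/C minus DBA1 was -1.37 (95% interval -2.32 to -0.42) but was not called (SE 0.43, limma adjusted p = 0.11), while 129/svj spanned 4.92, 4.91 and 6.74. Without 129/svj mouse 3 the difference was -1.35 and was called (limma adjusted p = 0.0027). Leaving out that mouse also changed the count of members called between DBA1 and 129/svj from 1 of 25 to 4 of 22, with 4.71% of all tested probes called then, adding Il10rb, Tnfrsf22 and Cxcl13.

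Over both tables, 28 of the 80 matched member probes were detected in at least 3 of the 15 mice, after all arrays had been normalized together. For each, the resistant minus sensitive difference was taken within a table and both differences were averaged. By limma 5 of the 28 (17.9%) were called, 2 higher and 3 lower in the resistant strains, where 12.0% of all tested probes were called, 6.54% higher and 5.45% lower. The median was -0.04 over the members and -0.01 over all tested probes. The sign of the difference was the same in both tables for 14 members, 4 higher and 10 lower in the resistant strain, and opposite for the other 14. No member was called in the same direction within both tables. With the strain as a random block 1 of the 28 was called. The BALB/C and B6 differences themselves differed from each other for 3 of the 28 members, Ccl21b, Il10ra and Cxcl12, and for 10.3% of all tested probes.

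The members called lower in the resistant strains were a chemokine, a macrophage growth factor and a receptor. Cxcl12 had a mean difference of -0.70 (SE 0.09, limma adjusted p = 0.00012), made of -0.21 for B6 minus NZW and -1.19 for BALB/C minus its sensitive strains. With the B6 and NZW arrays normalized alone, its B6 minus NZW difference was -0.22 and was not called (limma adjusted p = 0.27). The mean difference thus describes BALB/C more than B6. Csf1 had -0.69 (SE 0.21, limma adjusted p = 0.046), made of -0.90 and -0.48, but was detected in no BALB/C mouse, in 2 DBA1 mice and in 1 129/svj mouse. Its call was lost in 11 of the 15 cases in which 1 mouse was left out, and without the second arrays (difference -0.75, limma adjusted p = 0.052). Il17rb had -0.59 (SE 0.14, limma adjusted p = 0.0099), made of -0.84 and -0.34, and its call was lost with the strain as a random block. Within the tables it averaged 7.72 (SD 0.12) in B6 against 8.56 (SD 0.05) in NZW, and 7.84 (SD 0.53) in BALB/C against 8.34 (SD 0.07) in DBA1 and 8.02 (SD 0.27) in 129/svj, where the BALB/C and 129/svj mice overlapped.

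The probes called higher in the resistant strains were 1 of Il10rb and that of Il10ra. The Il10rb probe had a mean difference of 0.49 (SE 0.11, limma adjusted p = 0.0068), made of 0.27 for B6 and 0.71 for BALB/C. Its call held without any single mouse, but was lost with the strain as a random block and with the methods' t-test. The second matched Il10rb probe had 0.10 and was not called (SE 0.10, limma adjusted p = 0.62). On the called probe, with all arrays normalized together, B6 averaged 6.45 (SD 0.15) against 6.18 (SD 0.15) in NZW, and BALB/C 6.73 (SD 0.05) against 6.43 (SD 0.32) in 129/svj and 5.62 (SD 0.20) in DBA1. Il10ra had 0.70 (SE 0.09, limma adjusted p = 9.7e-05), but this came from B6 alone, with 1.43 for B6 minus NZW and -0.03 in the other table, where none of the 9 mice detected it. Il10ra passed the filter through the 3 B6 mice alone, so its value describes B6 and not the resistant strains. Levels were not compared across the tables.

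**Figure D4:**
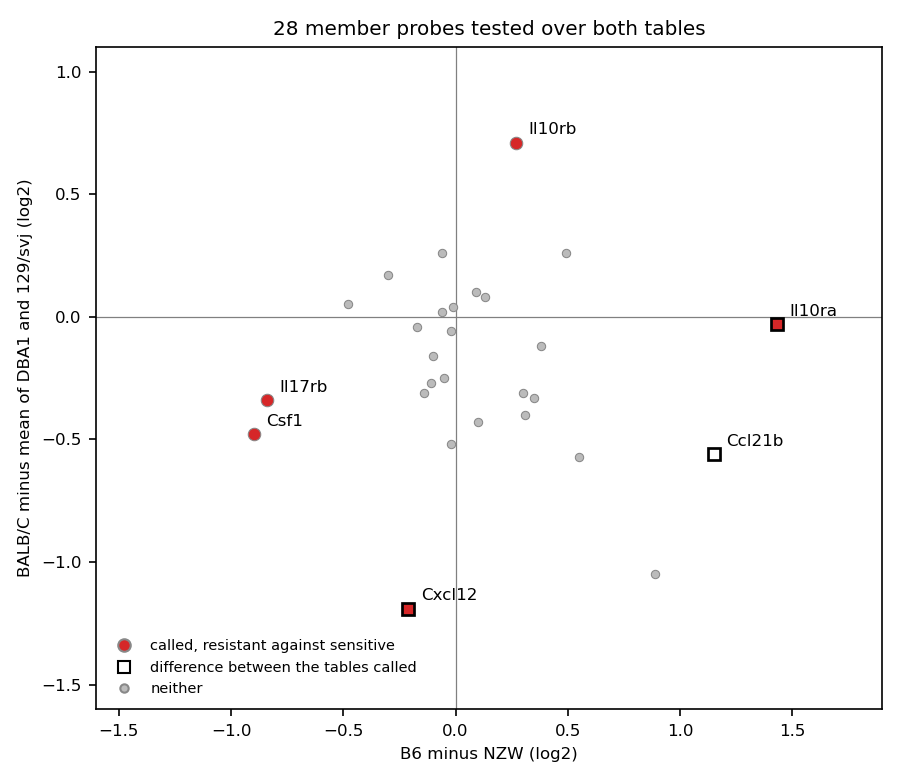
Difference of B6 minus NZW (x axis, log2) against BALB/C minus the mean of DBA1 and 129/svj (y axis, log2) for the 28 matched and tested member probes. Of these, 14 lie in the quadrants of equal sign and 14 in those of opposite sign, and Il10ra and Ccl21b lie far to the right with y values of -0.03 and -0.56.

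The study also used PCR for transcripts of this family, in kidneys of challenged 129/svj mice given transduced or vector-control mesenchymal stem cells. Those were not the mice measured here. The arrays were read for the transcripts that are members. Ccl2, the main monocyte chemokine, and Il6 and Tnf, which drive the acute phase, were detected in no B6 or NZW mouse. Ccl2 and Tnf were detected in no BALB/C, DBA1 or 129/svj mouse either, and Il6 and Ccl5 had no row there. Ccl7, another monocyte chemokine, was read at 5.76, 6.57 and 5.74 in B6 and at 5.35, 5.65 and 5.82 in NZW. Its difference of 0.42 was not called (SE 0.23, limma adjusted p = 0.26). In the other table Ccl7 was detected in 2 of the 3 129/svj mice only, and Il1b in 1 BALB/C mouse and 1 DBA1 mouse. Neither passed the filter there, so neither was tested.

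Some members varied widely between the mice of a strain. The median range over the 3 mice of a strain was 0.32 in B6, 0.38 in NZW, 0.33 in BALB/C, 0.50 in DBA1 and 0.43 in 129/svj. By contrast Cxcl13 was at 6.70, 7.72 and 5.42 in B6, Ccl6 at 6.27, 7.24 and 5.27, and Ccl9 at 7.26, 8.43 and 7.14, each highest in B6 mouse 2. The NZW mice held between 5.45 and 5.62 for Cxcl13 and between 6.83 and 7.04 for Ccl9. Cxcl13 with a difference of 1.09 and Ccl9 with 0.67 were not called (limma adjusted p = 0.15 and 0.16). In 129/svj mouse 3 was highest for Cxcl13, for Ccl6 at 6.57 against 5.42 and 5.19, for Ccl9 at 6.66 against 4.88 and 4.72, and for Tnfrsf22, a mouse decoy receptor for TRAIL, at 7.40 against 5.55 and 5.21. Wide ranges also occurred in other mice, as for the 2 Il17rd probes in DBA1 (1.62 and 1.43) and 1 of them in 129/svj (1.43), and for Tnfsf10 in BALB/C (1.16).

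The same mice were the highest of their strains in macrophage and in neutrophil markers. The log2 of the summed signal of 8 detected macrophage and monocyte probes, of 7 of 10 genes, was 12.20 in B6 mouse 2, 11.34 and 11.05 in the other B6 mice, and 10.72 to 11.27 in NZW. Cd163, Itgam and Lyz were not detected. Of these 8 probes 1 was called between B6 and NZW, that of Ms4a7 (1.06, SE 0.19, limma adjusted p = 0.0054), with a median of 0.50 over the 8. In the other table only Cd14 and Cd68 were detected, summing to 10.41 in 129/svj mouse 3, 8.27 and 7.66 in the other 129/svj mice, 7.32 to 8.35 in BALB/C and 9.31 to 10.56 in DBA1. Cd14 was lower in BALB/C than in the mean of both sensitive strains (difference -1.95, SE 0.47, limma adjusted p = 0.037), with -2.79 against DBA1 (adjusted p = 0.014) and -1.11 against 129/svj (adjusted p = 0.38). Cd68 differed by -0.47 and was not called (limma adjusted p = 0.77). The part of macrophage content in the chemokine differences was not tested. The T cell sum was 9.08 to 9.18 in B6 and 8.94 to 9.31 in NZW, with Cd4 and Cd8a not detected, and none of its 6 probes was called by limma, by the methods' t-test or at an unadjusted p below 0.05. The log2 of the summed signal of 7 neutrophil probes was 12.82 in B6 mouse 2, 10.50 and 12.45 in the other B6 mice and 11.35 to 11.84 in NZW, and these probes gave no call by the same measures. The 1 neutrophil probe detected in the other table was highest of the 129/svj mice in mouse 3, with the others at 8.18 and 4.85. Proximal tubule markers, by contrast, did not overlap between B6, at sums of 16.12 to 16.36, and NZW, at 16.43 to 16.53. Of their 10 detected probes 3 were called lower in B6, those of Cubn (difference -0.60, limma adjusted p = 0.007), Miox (-0.41, adjusted p = 0.036) and 1 of Lrp2 (-1.16, adjusted p = 0.00043). The brighter Lrp2 probe differed by -0.16 and was not called. Against both sensitive strains, BALB/C was higher for Slc5a2 (0.91, limma adjusted p = 0.027) and 1 Lrp2 probe (0.59, adjusted p = 0.042). It was lower for Slc22a6 (-1.32, adjusted p = 0.021), and the other tubule probes were not called. The part of neutrophil and tubule content in the differences between B6 and NZW was not tested.

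Other genes of these pathways, outside the symbol rule, were read as a list of 69 genes of TNF-type and chemokine receptors, TRAF adaptors, Janus kinases, STAT and SOCS proteins and NF-kB. In B6 and NZW 69 of 112 probes, of 52 genes, were detected, and limma called 4 higher and 6 lower in B6, where 18.9% of all tested probes were called, with a median difference of -0.07. Traf1, an NF-kB-induced adaptor of TNF receptors, was higher by 1.44 on one probe (SE 0.13, limma adjusted p = 0.00011) and differed by -0.12 on another that was not called. Jak1, the kinase bound to gp130 and to the IL-10 receptor, was lower (difference -0.92, SE 0.16, limma adjusted p = 0.0039), and so was Nfkbia, the inhibitor of NF-kB (difference -0.62, SE 0.17, limma adjusted p = 0.038). Of the TNF-type receptors on this list, Cd40 (-0.36) and Eda2r (-0.40) were called lower in B6 (limma adjusted p = 0.046 and 0.044), while Fas, Ltbr and Ngfr were not called. Among the other strains 17 of 40 probes were detected and none was called by limma or by the methods' t-test, with 3, 3, 0 and 1 probes at an unadjusted p below 0.05 for BALB/C against both strains, against DBA1, against 129/svj, and for DBA1 against 129/svj.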

How the data were processed

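RNA of kidney cortex had been hybridised to Illumina mouse BeadChips. The authors deposited, per probe and array, a signal intensity without normalization and a detection p-value that compares the probe with negative control beads. The image software, and any normalization used in the study, are not given in the sources used here. These deposited values were the only ones used, and every sample column belonged to a sample of the series (0 left over).

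Intensities were background-corrected with normexp from the detection p-values (nec, offset 16), quantile normalized within a table, and taken to log2. A second array that the sample descriptions call a replicate of mouse 1, as in 3 strains, was averaged with the first, although its title carries a number of its own. Probes detected (p at or under 0.05) in 3 or more mice were fitted with lmFit and eBayes (limma 3.58.1, R 4.3.3), with 1 coefficient per strain and Benjamini-Hochberg adjustment over all tested probes, and a call needed an adjusted p below 0.05. For both tables together, 19886 uniquely matched probe pairs were normalized over all arrays. Tables were joined in Python 3.11.15 with pandas 2.3.3, and the methods' t-test was run in R in Student's form. The fit was tested on simulated data.

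Members and lists were chosen with earlier results of these data known. Named were, per comparison, the 5 largest called differences in each direction, all members called over both tables, the brightest member per role, the members measured by PCR in the study (1 is not reported here), and those that all mice of a strain detected while no mouse of another did. Other called members and those of the mouse-to-mouse comparison were named after their values were seen. Il6st was counted with the interleukin receptors and Tnfsf5ip1 with the TNF-induced genes. Symbols are those of the array and can be old, and genes were counted by symbol. For 3 rows of the second table, read as Il11ra1, Il17ra and Cxcl16, the key named more than 1 symbol, so their symbol is uncertain. That the 3 mice of a strain were separate animals is taken from the study. The alternatives tried covered background correction, offset, scaling, filter, variance model, test, repeat arrays, replicate number, strain and size of difference.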

Additional observations from a re-analysis of the deposited data

Results flagged for a closer look

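The difference between resistant and sensitive strains was itself different in the tables for 3 of the 28 members tested over both, where 10.3% of all tested probes were (limma, BALB/C difference minus B6 difference). For Ccl21b the value was -1.72 (SE 0.27, adjusted p = 0.00054), from 1.15 for B6 minus NZW and -0.56 for BALB/C minus its sensitive strains. For Il10ra it was -1.45 (SE 0.19, adjusted p = 7.6e-05), but only B6 mice detected the probe, so both differences in it rest on signal not well above background and it describes B6 alone. For Cxcl12 it was -0.98 (SE 0.19, adjusted p = 0.0029), with both differences below 0. Each call held without any single mouse for which it was tested, and that of Cxcl12 was lost with 75th percentile scaling (value -0.70). Strain and table cannot be told apart in these values.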

How the results depend on the processing

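Neither Ccl7 nor any called member changed direction under any alternative tried. For the other members named without a call this is not given here. The count of members called between B6 and NZW, 21, became 9 with the methods' t-test, 6 of 24 tested when the tables were normalized together, 5 with a log2 difference of at least 1, and 9 to 19 without single mice. For BALB/C against both sensitive strains the count of 2 became 1 without a filter, with detection in every mouse, with the methods' t-test and with a log2 difference of at least 1, and 1 to 2 without single mice. Against DBA1 the count of 4 became 2 with detection in every mouse and with the methods' t-test, and 1 to 4 without single mice. Against 129/svj it was 1 to 2 (Il6ra was added without DBA1 mouse 3), and between DBA1 and 129/svj 1 to 4, without single mice. The latter was 0 with the methods' t-test (2 at an unadjusted p below 0.05) and 2 with the tables normalized together. For resistant against sensitive strains the count of 5 became 2 with detection in every mouse, 0 with the methods' t-test (6 at an unadjusted p below 0.05), 1 with strain as a random block, 0 with a log2 difference of at least 1, and 3 to 5 without single mice (3 without each B6 mouse in turn). With a detection p of 0.01, 51 and 16 members were detected in place of 82 and 25. With the tables normalized together, 1349 of all 6074 tested probes were called between B6 and NZW, and 317 of 5446 between DBA1 and 129/svj. Without single mice 10.8% to 16.2% of all tested probes were called between B6 and NZW. In the other table the ranges were 2.91% to 6.92%, 2.9% to 7.63%, 2.84% to 6.15% and 2.73% to 4.77%, in the order above. Over both tables it was 8.55% to 13.8%, and 0.464% with the methods' t-test. The cause of these changes was not tested.

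At their unadjusted threshold, the methods' t-test called 26 members between B6 and NZW (28.5% of all tested probes) and 6, 9, 6 and 2 in the comparisons of the other table, in the order given (13.8%, 17.3%, 14.1% and 11.3% of all tested probes). After Benjamini-Hochberg adjustment it called 9, 1, 2, 1 and 0 members, and 11%, 1.86%, 2.52%, 2.02% and 1.37% of all tested probes. With the replicate number as a block, the counts were 18 between B6 and NZW, then 3, 6, 1 and 1, and 4 over both tables. The deviations of mice of different strains with the same number correlated at -0.07 to 0.01 over 3 pairs and at -0.26 to 0.39 over 9 pairs. These few values cannot settle whether such mice share more than a number, because pairs of different numbers are not given beside them. Most member probes lie near the background, where the offset compresses differences, and 3 mice per strain limit the precision.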
